A study of Mus musculus with 23 samples.

Results

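Neutrophil granule genes were followed through the osteocyte-enriched bone of mice given L-BAIBA, sub-optimal loading or both. The 10 genes were chosen by name, 4 that are transcribed early in granule formation (*Elane*, *Mpo*, *Prtn3* and *Ctsg*) and 6 that are transcribed late (*S100a8*, *S100a9*, *Ltf*, *Ngp*, *Camp* and *Lcn2*), and the early genes were set against the late ones. All 10 were present in the tables of both experiments, which held 15962 genes after 2 weeks and 15762 genes after a single bout of loading.

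The mice were wild-type male C57BL/6 animals of 5 months. They drank regular water (vehicle) or water with L-BAIBA at 100 mg/kg/day, and the right tibia was loaded axially at a peak force of 8.25 N while the left tibia served as the nonloaded control of the same animal. In the 2-week experiment loading was given in 3 bouts per week for 2 weeks, and in the single-bout experiment 1 bout followed 5 days of L-BAIBA or regular water. Bone was taken 24 hours after the last bout, the marrow was flushed and the bone surface was digested with collagenase and EDTA, and the right or the left tibiae of 2 mice were combined in each library. There were 3 libraries in every group except the nonloaded L-BAIBA tibiae of the single-bout experiment, with 2. The nonloaded tibiae thus came from mice whose other leg was loaded, and no library came from a mouse that was never loaded.

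Neutrophils are made in the marrow and store their antimicrobial proteins in granules that form one after another as the cell matures. At the promyelocyte stage the primary (azurophil) granules are filled with myeloperoxidase (*Mpo*) and with serine proteases, neutrophil elastase (*Elane*), proteinase 3 (*Prtn3*) and cathepsin G (*Ctsg*), whose transcripts are then lost. Later stages transcribe lactoferrin (*Ltf*), neutrophilic granule protein (*Ngp*), the cathelicidin precursor (*Camp*) and lipocalin 2 (*Lcn2*) for the secondary granules, and the calcium-binding proteins *S100a8* and *S100a9*, which together form calprotectin in the cytosol. The ratio of early to late transcripts therefore differs between young precursors and nearly mature cells. In RNA of a whole tissue, fewer cells of a type and less RNA per cell cannot be told apart.

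The libraries held 6368289 to 18318951 counts assigned to genes in the 2-week experiment and 17811949 to 37562527 in the single-bout experiment. After a single bout every loaded L-BAIBA library (32779499 to 37562527) was deeper than every loaded vehicle library (17811949 to 28352670). The part of depth in the comparison of these groups was not tested. The osteocyte transcripts *Dmp1*, *Mepe* and *Sost* were detected in every library, with group means in CPM (counts scaled to the library size) of 1486 to 4940 for *Dmp1*, 1627 to 4446 for *Mepe* and 2197 to 3676 for *Sost*. Values for single genes are CPM after TMM scaling, and log2 fold changes carry the standard error (SE) of edgeR's quasi-likelihood fit. With 2 or 3 libraries per group, edgeR gave 0 genes an adjusted p under 0.05 in any of the 15 comparisons below (0% of 15576, 15500 or 15492 genes), so no member passed. Between 184 and 2929 genes per comparison had an unadjusted p under 0.05, and an adjusted p under 0.05 was given to 0 to 866 genes by DESeq2 and to 0 to 594 by the likelihood ratio test of edgeR. The counts below are of members at an unadjusted p under 0.05. The first count of each comparison stands beside the percentage of all genes that reached that threshold in the same direction. Counts from fits that leave out a single library have no such percentage beside them. The tibiae of mouse pool Q5+Q6, treated with L-BAIBA in the single-bout experiment, gave the 2 highest single-bout values of all 10 members. The single-bout results are therefore also given without that pool, which leaves a single library of nonloaded L-BAIBA tibiae.

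The granule genes made up a considerable share of the counts in this flushed bone, 1.24 to 3.07% per library (median 2.18%) in the 2-week experiment and 2.48 to 6.97% (median 3.02%) in the single-bout experiment. The early genes accounted for 0.158 to 0.320% of the counts after 2 weeks and for 0.211 to 0.606% after a single bout. Per kilobase of exon, *S100a8* and *S100a9* had the highest levels, with medians over the 2-week libraries of 8288 and 8264 CPM per kb. *Ngp* followed at 5241 CPM per kb, then *Camp* at 1965, *Lcn2* at 1603 and *Ltf* at 913. The medians of the early genes lay below all of these, *Mpo* at 652, *Elane* at 524, *Prtn3* at 254 and *Ctsg* at 151 CPM per kb. The order was the same in the single-bout experiment, with medians from 13761 CPM per kb for *S100a8* to 175 for *Ctsg*. Of neighbours in that order, *S100a8* and *S100a9* overlapped almost completely over the 2-week libraries (5232 to 16552 and 6001 to 15346 CPM per kb), and the ranges of *Camp* and *Lcn2* overlapped as well (1370 to 3532 and 917 to 1947).

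**Figure D1:**
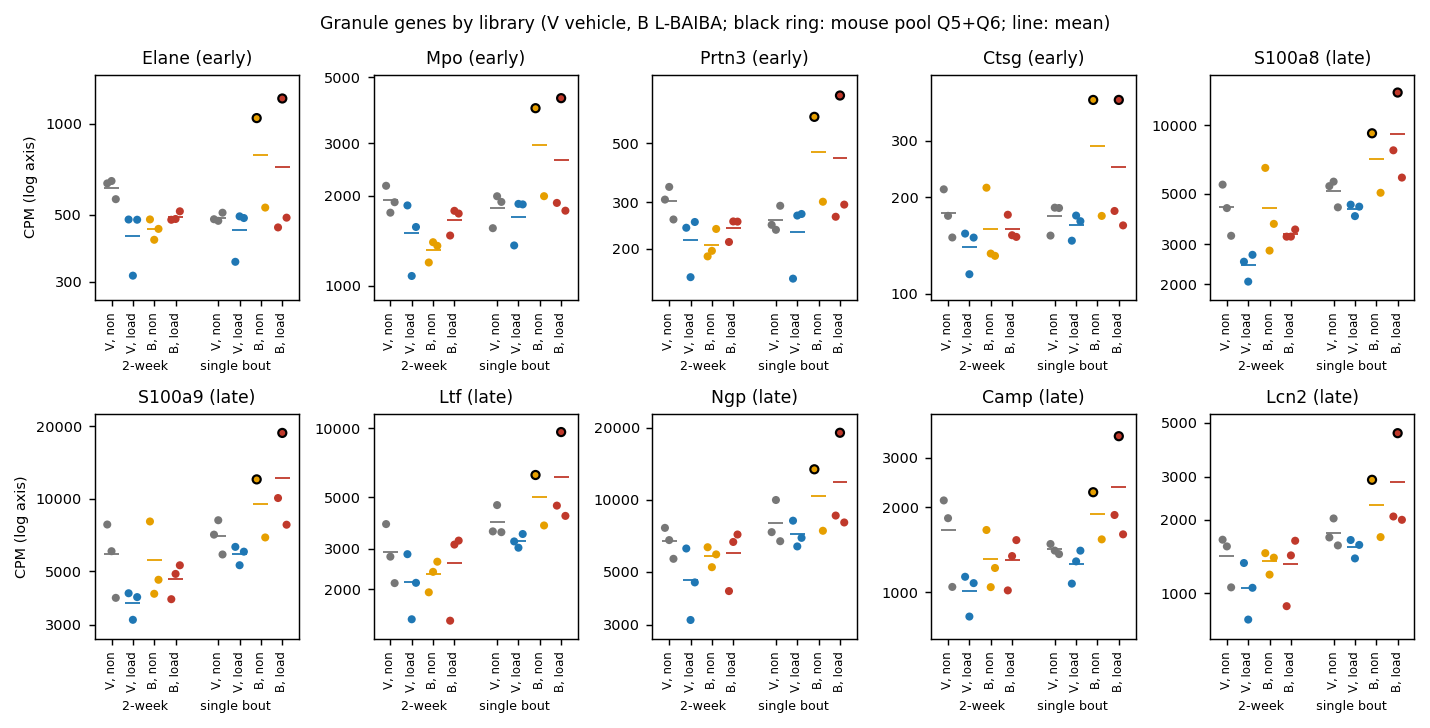
CPM after TMM scaling on a log axis for each of the 10 granule genes, one point per library and a line at the mean of each group, for vehicle (V) and L-BAIBA (B) tibiae that were nonloaded (non) or loaded (load). The ringed points of mouse pool Q5+Q6 are the highest single-bout points for every gene, for example 1211 and 1043 CPM for *Elane* against at most 528 CPM in the other single-bout libraries.

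On mm10, *Prtn3* (chromosome 10, 79879667 to 79883172) and *Elane* (chromosome 10, 79886312 to 79888216) are neighbours on the plus strand. *Mpo* lies on chromosome 11 (87793784 to 87804412) and *Ctsg* on chromosome 14 (56099881 to 56102574, minus strand). Of the late genes, *Camp* (109847377 to 109849456, minus strand), *Ngp* (110419808 to 110423012) and *Ltf* (111019292 to 111042766) share a stretch of chromosome 9, and *S100a8* (90669071 to 90670034) and *S100a9* (90692630 to 90695721, minus strand) lie side by side on chromosome 3. *Lcn2* is on chromosome 2 (32384637 to 32387739, minus strand).

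The promoters are shown as a description of the genes, and whether they bear on the levels of the transcripts was not tested. The 250 bases before the annotated start of each member were taken from RefSeq (GRCm38.p6, the assembly called mm10), in which all 10 genes matched, and were searched on both strands for letters bound by 4 regulators of myeloid genes. These letters were chosen with the promoters in view, so their presence is a description. The letters GAGGAAGT, a form bound by PU.1 (*Spi1*), were found before *Elane*, *Prtn3*, *Mpo* and *S100a8*, 3 of 4 early and 1 of 6 late genes, and in 2.44% of 32851 promoter windows of the same length. The letters TTGCNNAA, a form bound by C/EBP factors, were found before *S100a9*, *Ltf*, *Ngp* and *Lcn2*, 4 of 6 late and 0 of 4 early genes, and in 9.56% of all windows. A RUNX form (TGTGGT) was found before *Ctsg* and *S100a9* (14% of all windows) and a MYB form (CAACNG) before *Elane*, *Prtn3*, *Ctsg*, *Ngp* and *Lcn2* (29.3% of all windows). In the early promoters below, capitals mark GAGGAAGT, which starts 85 bases before the start of *Elane*, 95 before that of *Prtn3* and 224 before that of *Mpo*. The windows are chr10:79886062-79886311, chr10:79879417-79879666 and chr11:87793534-87793783, all on the plus strand.
Elane: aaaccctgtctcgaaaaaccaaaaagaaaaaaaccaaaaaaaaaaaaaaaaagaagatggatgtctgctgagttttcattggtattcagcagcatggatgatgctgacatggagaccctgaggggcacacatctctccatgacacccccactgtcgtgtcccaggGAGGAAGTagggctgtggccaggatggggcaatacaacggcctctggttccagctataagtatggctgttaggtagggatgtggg
Prtn3: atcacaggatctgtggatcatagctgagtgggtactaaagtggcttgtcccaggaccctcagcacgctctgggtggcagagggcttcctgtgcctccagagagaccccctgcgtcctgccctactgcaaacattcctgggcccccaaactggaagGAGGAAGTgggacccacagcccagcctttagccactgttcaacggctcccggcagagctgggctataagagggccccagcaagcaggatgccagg
Mpo: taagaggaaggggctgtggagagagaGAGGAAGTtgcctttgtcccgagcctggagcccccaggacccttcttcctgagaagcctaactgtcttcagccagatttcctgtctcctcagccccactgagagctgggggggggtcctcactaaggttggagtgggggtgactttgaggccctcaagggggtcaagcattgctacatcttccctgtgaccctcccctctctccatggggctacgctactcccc

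Of the late genes, *Ltf* (chr9:111019042-111019291, plus strand) and *Ngp* (chr9:110419558-110419807, plus strand) are shown, since they code for proteins of the same granule and each carries the C/EBP letters near its start. Capitals mark TTGCNNAA on either strand, 75 bases before the start of *Ltf* and 138 and 11 bases before that of *Ngp*.
Ltf: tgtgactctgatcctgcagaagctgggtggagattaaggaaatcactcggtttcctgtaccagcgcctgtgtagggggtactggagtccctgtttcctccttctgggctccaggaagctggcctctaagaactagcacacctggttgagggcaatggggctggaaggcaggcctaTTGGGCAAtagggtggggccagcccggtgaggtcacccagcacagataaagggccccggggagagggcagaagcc
Ngp: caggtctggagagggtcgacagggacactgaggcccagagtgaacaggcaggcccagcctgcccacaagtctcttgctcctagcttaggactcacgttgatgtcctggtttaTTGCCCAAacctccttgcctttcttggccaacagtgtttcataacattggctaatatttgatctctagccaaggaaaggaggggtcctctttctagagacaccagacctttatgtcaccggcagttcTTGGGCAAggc

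Over the libraries of an experiment, the log2 CPM of members of the same class went together more closely than those of different classes, by the median over pairs. In the 12 libraries of the 2-week experiment the median Pearson r was 0.76 over the 6 pairs of early genes, 0.84 over the 15 pairs of late genes and 0.64 over the 24 mixed pairs. In the 11 single-bout libraries these medians were 0.97, 0.97 and 0.86, with the 2 libraries of pool Q5+Q6 at the high end of both classes. The ranges overlapped, with 2-week pairs at 0.38 to 0.90 (early), 0.35 to 0.96 (late) and 0.20 to 0.85 (mixed). In the single-bout libraries the late pairs lay at 0.87 to 0.997 and the mixed pairs at 0.78 to 0.92. These values describe libraries that share mouse pools and depth. Of 15178 other genes, those most like the mean of the early genes in both experiments included *F10* (coagulation factor X, r = 0.93 and 0.97 over the 2-week and the single-bout libraries), *Pfn1* (profilin, 0.91 and 0.90), *Ly6e* (0.89 and 0.91) and *Napsa* (an aspartic protease, 0.88 and 0.92). Those most like the late genes were *Trem3* (a myeloid receptor, 0.96 and 0.99), *Msrb1* (a methionine sulfoxide reductase, 0.95 and 0.99), *Arhgdib* (0.94 and 0.98), *Ly6c2* (0.94 and 0.97) and *Alox5ap* (needed for leukotriene synthesis, 0.94 and 0.99). No gene was among the 5 most like both classes.

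**Figure D2:**
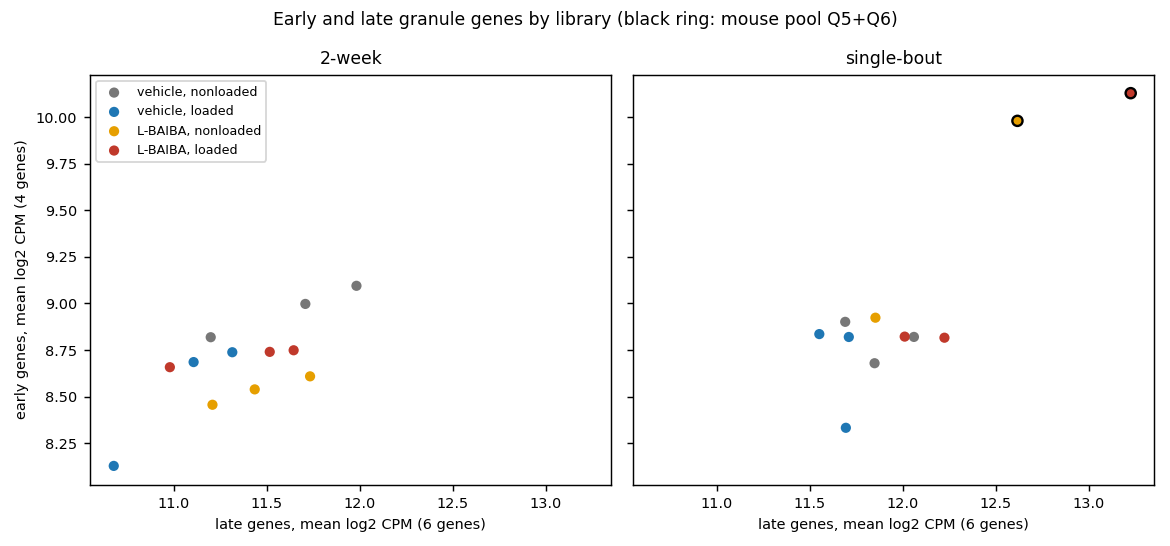
Mean log2 CPM of the 4 early genes (vertical axis) against that of the 6 late genes (horizontal axis), one point per library, coloured by group. Pool Q5+Q6, ringed, lies at 9.98 and 10.1 for the early genes, where all other libraries lie between 8.13 and 9.09, and the nonloaded L-BAIBA libraries of the 2-week experiment lie low in early genes (8.46 to 8.61) for their level of late genes.

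To ask what 2 weeks of loading did without L-BAIBA, loaded and nonloaded tibiae of vehicle-treated mice were compared. All 10 granule genes were lower in the loaded tibiae, 5 of them at an unadjusted p under 0.05, where 4.01% of all genes were lower at that threshold. The median log2 fold change was -0.51 over the members, -0.43 over the early and -0.60 over the late genes, against 0.01 over all genes tested. The smallest adjusted p of a member by edgeR's quasi-likelihood test was 0.47.

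*S100a8* stood at 5477, 4319 and 3262 CPM in the nonloaded and at 2509, 2051 and 2690 CPM in the loaded vehicle tibiae. Every loaded library was below every nonloaded one, with a log2 fold change of -0.85 ± 0.29 (SE, n = 3, unadjusted p = 0.0125). *S100a9*, its partner in calprotectin, stood at 7811, 6053 and 3878 CPM in the nonloaded and at 4052, 3144 and 3906 CPM in the loaded tibiae. Here the groups overlapped, since the nonloaded pool R12+R16 was the lowest of its group for both genes, and the log2 fold change was -0.68 ± 0.31 (unadjusted p = 0.046). *Camp* had 2115, 1830 and 1045 CPM against 1135, 820 and 1078 CPM, with a log2 fold change of -0.72 ± 0.28 (unadjusted p = 0.0226).

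Among the early genes, *Elane* stood at 635, 646 and 563 CPM in the nonloaded and at 482, 315 and 481 CPM in the loaded vehicle tibiae, without overlap (-0.53 ± 0.18, unadjusted p = 0.0123). *Prtn3* had 307, 343 and 258 CPM against 240, 156 and 253 CPM, also without overlap (-0.48 ± 0.20, unadjusted p = 0.0308). The lowest value of each came from the loaded pool R3+R7, which has no nonloaded partner among the libraries. How many of all genes were separated between these groups, as *S100a8*, *Elane* and *Prtn3* were, was not counted. The remaining members had log2 fold changes of -0.37 ± 0.21 (*Mpo*), -0.36 ± 0.21 (*Ctsg*), -0.44 ± 0.33 (*Ltf*), -0.53 ± 0.28 (*Ngp*) and -0.43 ± 0.27 (*Lcn2*), all at an unadjusted p above 0.05. Leaving out pool R3+R7 (loaded replicate 2) left 1 member at an unadjusted p under 0.05, leaving out nonloaded replicate 1 left 1 and leaving out nonloaded replicate 2 left 2. All 10 members kept their negative sign in each of the 23 other settings tried for this comparison.

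Genes outside the 10 that mark the same cells were lower too. Of the 8 other promyelocyte genes, 8 were lower with loading and 5 of them at an unadjusted p under 0.05, among them *Nkg7* (-0.56 ± 0.19) and *Ms4a3* (-0.57 ± 0.20), a marker of granulocyte and monocyte progenitors. Of 14 other late granule and membrane genes tested, 13 were lower and 3 at that threshold, *Wfdc21*, *Pglyrp1* (an antibacterial granule protein, -0.55 ± 0.23) and *Chil3*, while the collagenase *Mmp8* stood at -0.19 ± 0.24. Of 14 genes of mature neutrophils, 12 were lower and 2 at that threshold, *Trem3* and *Trem1*, whereas the chemokine receptor *Cxcr2* stood at 0.05 ± 0.35 and the G-CSF receptor *Csf3r* at -0.23 ± 0.32. *Serpinb1a*, an inhibitor of elastase, proteinase 3 and cathepsin G, had a log2 fold change of -0.52 ± 0.21 (unadjusted p = 0.0272), and *Ctsc*, the protease that activates these enzymes, 0.04 ± 0.20. Of the regulators, *Gfi1*, a repressor needed for neutrophil maturation, stood at 1.01 ± 0.42 and *Cebpe*, which drives late granule genes, at -0.62 ± 0.37.

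Lists of other cells moved with these values. Of 6 erythroid genes tested, 6 were lower (3 at an unadjusted p under 0.05, median -0.68), with the mean log2 CPM of the list at 8.73 to 9.03 in the nonloaded libraries and at most at 8.48 in the loaded ones. The 10 cell cycle genes were all lower (5 at that threshold, median -0.63). The 8 osteocyte genes were all higher (3 at that threshold, median 0.88), with the list at 8.17 to 8.42 in the nonloaded and 8.34 to 9.79 in the loaded libraries, and 0 of 11 B lineage genes reached the threshold (median -0.15). Of the erythroid list, the globin genes were not analysed here. The part of these lists in the lower granule genes was not tested.

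L-BAIBA alone was examined in the nonloaded tibiae of the same experiment. All 10 members were lower with L-BAIBA than with vehicle, although *S100a8*, at -0.01, lay at 0.06 with scaling by total counts, and the early genes were lower by more, with a median log2 fold change of -0.50 against -0.14 for the late genes and -0.0046 over all genes. Of the members, 3 were lower at an unadjusted p under 0.05, all early, against 3.86% of all genes. The difference between the classes, -0.26 in mean log2 fold change, was not tested.

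*Mpo* stood at 2162, 1757 and 1905 CPM with vehicle and at 1196, 1399 and 1360 CPM with L-BAIBA, without overlap (-0.56 ± 0.21, unadjusted p = 0.0205). *Elane* was likewise separated, with 635, 646 and 563 against 483, 413 and 449 CPM (-0.46 ± 0.18, unadjusted p = 0.0265), and so was *Prtn3*, with 307, 343 and 258 against 187, 197 and 238 CPM (-0.55 ± 0.20, unadjusted p = 0.0172). *Ctsg*, the fourth early gene, overlapped between the groups (-0.17 ± 0.21). How many of all genes were separated between these groups was not counted. The late genes ranged from -0.01 ± 0.29 (*S100a8*) over -0.09 ± 0.31 (*S100a9*), -0.08 ± 0.27 (*Lcn2*), -0.20 ± 0.28 (*Ngp*) and -0.33 ± 0.33 (*Ltf*) to -0.35 ± 0.28 (*Camp*). Over all other settings 199 of 220 member values stayed negative, and the positive ones were of *S100a8*, *S100a9* and *Lcn2*. Pool R4+R5, the shallowest pair of libraries, stood well above the other nonloaded L-BAIBA pools in *S100a8*, *S100a9*, *Camp* and the early gene *Ctsg*. It had 6488 CPM of *S100a8* against 2808 and 3681 CPM, and 214 CPM of *Ctsg* against 134 and 131 CPM. In *Ngp* (6334 against 5226 and 5912 CPM) and *Lcn2* (1463 against 1195 and 1402 CPM) it lay nearer to them. In *Ltf* it was the lowest (1936 against 2375 and 2630 CPM).

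Without pool R4+R5, 4 members (all early) were at an unadjusted p under 0.05, with 4.77% of all genes lower there, and the medians were -0.47 for the early and -0.33 for the late genes. Leaving out nonloaded vehicle replicate 1, nonloaded vehicle replicate 2 or nonloaded L-BAIBA replicate 2 left 1 member each. Of the other promyelocyte genes, 8 of 8 were lower with 2 at that threshold, *Nkg7* (-0.49 ± 0.19) and the serine protease *Prss57* (-0.53 ± 0.23), and the mature neutrophil genes had a median of -0.08 with 0 of 14 at that threshold. Of 11 B lineage genes the median was -0.47 (5 lower at that threshold), the 6 erythroid genes -0.58 (1 lower) and the 8 osteocyte genes 0.79 (3 higher). The part of these lists in the result was not tested.

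With both treatments, all 10 members were again below nonloaded vehicle. In loaded L-BAIBA compared with nonloaded vehicle tibiae, the 10 members were lower by a median of -0.27 (early -0.27, late -0.25), from -0.11 ± 0.27 for *Lcn2* to -0.39 ± 0.29 for *S100a8*. Of these, 0 reached an unadjusted p under 0.05 (0.976% of all genes were lower at that threshold), and 1 did without nonloaded vehicle replicate 3. Compared with loaded vehicle tibiae, all 10 were higher in loaded L-BAIBA tibiae, by a median of 0.30 (early 0.17, late 0.35), from 0.15 ± 0.20 for *Prtn3* to 0.46 ± 0.29 for *S100a8*. Again 0 reached the threshold (0.353% of all genes were higher there). Without loaded vehicle replicate 1 it was 1 member, and without pool R4+R5, where 6.33% of all genes were higher at that threshold, it was 2, *Ngp* (0.58) and *Lcn2* (0.55).

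Within L-BAIBA-treated mice, loading left the members near 0, with 6 higher and 4 lower and a median of 0.02, or -0.01 with scaling by total counts. The early genes had a median of 0.17 and the late genes of -0.02, from 0.34 ± 0.21 for *Mpo* to -0.38 ± 0.29 for *S100a8*. At the unadjusted threshold stood 0 members, and 0.648% of all genes were higher there. When mouse pools entered the fit as a block, 1 member reached it, *Mpo*, at 0.34 with the pool as a fixed effect (unadjusted p = 0.0147), and without nonloaded L-BAIBA replicate 2 it was also 1.

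The interaction asks whether loading differed between L-BAIBA and vehicle mice. It was positive for all 10 members, with a median of 0.59, 0.68 over the early and 0.52 over the late genes against -0.01 over all genes. Of the members, 3 reached an unadjusted p under 0.05, against 2.47% of all genes in the same direction, *Elane* (0.67 ± 0.26, unadjusted p = 0.0226), *Mpo* (0.71 ± 0.30, unadjusted p = 0.0340) and *Prtn3* (0.69 ± 0.28, unadjusted p = 0.0286). *Camp* had 0.71 ± 0.39 (unadjusted p = 0.0946) and *Ctsg* 0.36 ± 0.30. The other late genes lay from 0.40 ± 0.38 (*Lcn2*) to 0.61 ± 0.47 (*Ltf*), with 0.47 ± 0.41 for *S100a8*, 0.42 ± 0.43 for *S100a9* and 0.57 ± 0.40 for *Ngp*. The adjusted p of each of the 3 was 0.72 by edgeR's quasi-likelihood test. The count was 0 without loaded vehicle replicate 2 or loaded L-BAIBA replicate 3 and 1 without loaded or nonloaded L-BAIBA replicate 2. It was 8 without pool R4+R5, where 7.71% of all genes were higher at that threshold, and 1 when libraries were scaled by total counts without TMM.

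Of the other promyelocyte genes, 5 of 8 had a positive interaction at the unadjusted threshold, among them *Nkg7* (0.70 ± 0.27), *Cst7* (0.76 ± 0.29) and *Ms4a3* (0.64 ± 0.28). The mature neutrophil genes had a median of 0.23 with 0 of 14 at that threshold. *Gfi1* and *Cebpe* stood at -1.03 ± 0.59 and 0.80 ± 0.52, and *Mmp8* at -0.01 ± 0.34. Erythroid genes had a median of 0.91 (1 of 6 at the threshold), and the osteocyte genes *Phex* (-1.68 ± 0.49) and *Mepe* (-1.30 ± 0.49) went the other way.

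**Figure D3:**
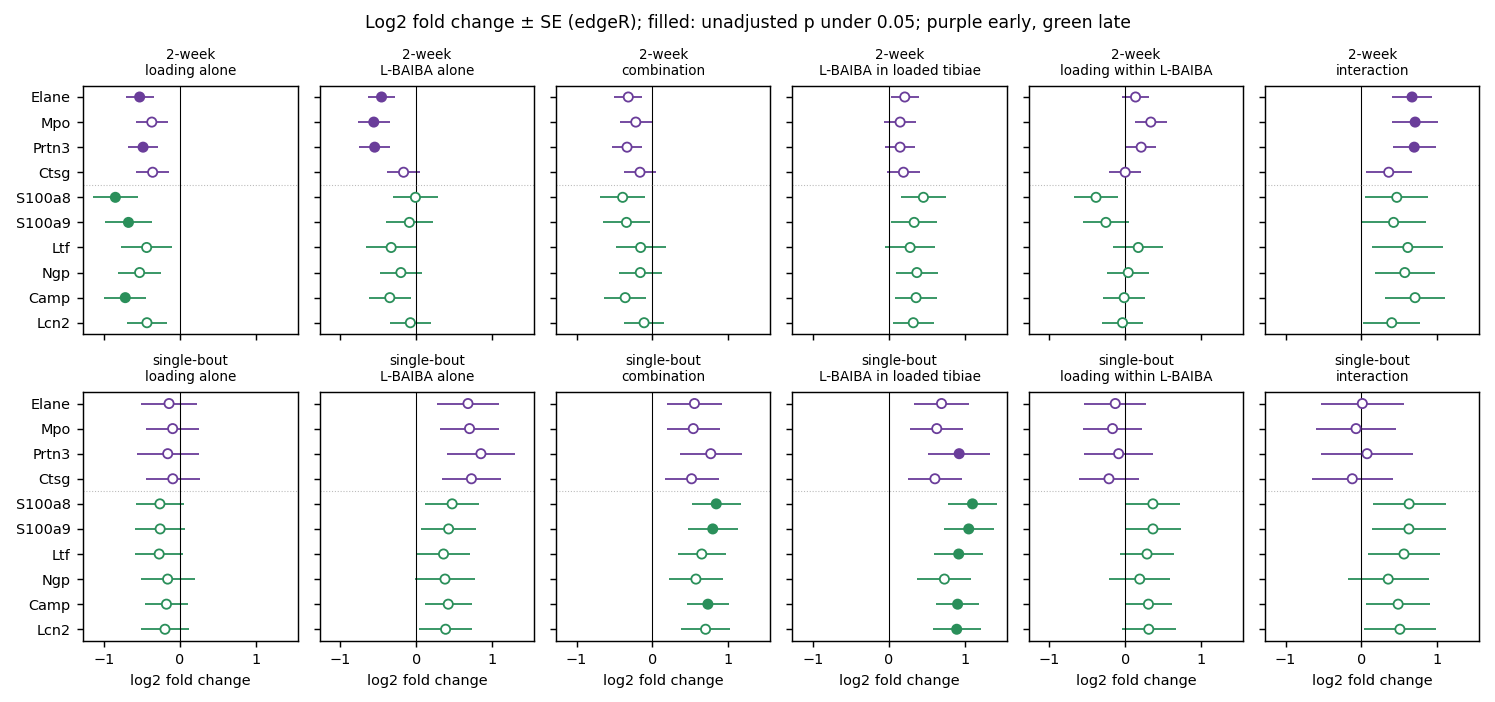
Log2 fold change with SE of each granule gene in the 6 comparisons of the 2-week (top) and the single-bout (bottom) experiment, early genes in purple and late genes in green. Filled points have an unadjusted p under 0.05, 5 of 10 with 2 weeks of loading alone and 6 of 10 with L-BAIBA in loaded tibiae after a single bout, and no adjusted p was under 0.05.

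After a single bout of loading without L-BAIBA, all 10 members were again lower in the loaded tibiae, but by less. The median of their log2 fold changes was -0.17 (early -0.12, late -0.23) against 0.02 over all genes. The values ran from -0.09 ± 0.35 for *Ctsg* and -0.09 ± 0.35 for *Mpo* to -0.27 ± 0.32 for *Ltf*, 0 of 10 reached an unadjusted p under 0.05, and 0.329% of all genes were lower at that threshold. The fit without pool Q5+Q6 gave a count of 0 and medians of -0.12 and -0.23. *S100a8* stood at 5394, 5646 and 4352 CPM in the nonloaded and at 4471, 3981 and 4382 CPM in the loaded vehicle tibiae, with overlapping groups (-0.26 ± 0.32). The 8 osteocyte genes were all higher here too (median 0.78, 2 at the threshold), while the erythroid genes had a median of 0.09.

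L-BAIBA alone for 5 days gave higher values of all 10 members in the 2 nonloaded libraries than in the 3 vehicle libraries, by a median of 0.45 on the log2 scale, and more for the early (0.72) than the late genes (0.41). None passed an unadjusted p under 0.05 (0 of 10, with 2.09% of all genes higher at that threshold). *Prtn3* had the largest value of the members, 0.85 ± 0.45, followed by *Ctsg* (0.73 ± 0.39), *Mpo* (0.70 ± 0.39) and *Elane* (0.68 ± 0.40). This rested on 1 of the 2 libraries. *Elane* stood at 1043 CPM in pool Q5+Q6 and at 528 CPM in pool Q7+Q8, and the vehicle libraries held 477 to 508 CPM. Without pool Q5+Q6, which leaves a single nonloaded L-BAIBA library, the medians were 0.12 for the early and -0.04 for the late genes. The count of members was 4 without loaded L-BAIBA replicate 2 and 4 when only the groups compared were fitted. All 11 B lineage genes were lower in this comparison (median -1.25, 3 at the threshold, and 3 with a median of -0.50 without pool Q5+Q6). Of 12 monocyte and macrophage genes, 3 were lower at the threshold, and 0 without that pool. The part of these lists in the higher granule genes was not tested.

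The combination gave the members higher values than nonloaded vehicle tibiae, by a median of 0.67 (early 0.55, late 0.71). At an unadjusted p under 0.05 were 3 of 10, against 7.06% of all genes higher there, *S100a8* (0.84 ± 0.32, unadjusted p = 0.0245), *S100a9* (0.79 ± 0.33, unadjusted p = 0.0347) and *Camp* (0.73 ± 0.28, unadjusted p = 0.0251). The others lay from 0.52 ± 0.35 for *Ctsg* to 0.77 ± 0.41 for *Prtn3*, with *Mpo* at 0.54 ± 0.35, *Elane* at 0.55 ± 0.37, *Ngp* at 0.57 ± 0.36, *Ltf* at 0.65 ± 0.32 and *Lcn2* at 0.70 ± 0.32. The count was 0 without loaded L-BAIBA replicate 2, which is the loaded library of pool Q5+Q6, 0 without nonloaded vehicle replicate 3, and 6 without loaded L-BAIBA replicate 1 or 3. Without both libraries of pool Q5+Q6 it was 0, with medians of 0.00 for the early and 0.25 for the late genes. All 6 erythroid genes (median -0.77, 3 at the threshold), all 11 B lineage genes (median -0.76, 0 at the threshold) and all 10 cell cycle genes (median -0.42, 2 at the threshold) were lower here, and their part in the result was not tested.

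L-BAIBA was also compared with vehicle in loaded tibiae. All 10 were higher with L-BAIBA, by a median log2 fold change of 0.90 against -0.04 over all genes, 0.66 for the early and 0.91 for the late genes. At an unadjusted p under 0.05 were 6 members, *Prtn3* among the early and *S100a8*, *S100a9*, *Ltf*, *Camp* and *Lcn2* among the late genes, where 8.85% of all genes were higher. The smallest adjusted p of a member was 0.17 by edgeR's quasi-likelihood test. DESeq2 gave *S100a8* (adjusted p = 0.0175), *S100a9* (0.0247), *Camp* (0.0288) and *Ltf* (0.0463) an adjusted p under 0.05, among 866 genes in all, and edgeR's likelihood ratio test gave it to *S100a8* (0.0296), *S100a9* (0.0399) and *Camp* (0.0477), among 594 genes.

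*S100a8* stood at 4471, 3981 and 4382 CPM with vehicle and at 7753, 13917 and 5882 CPM with L-BAIBA. The groups were apart, and pool Q5+Q6 held the highest value (1.10 ± 0.32, unadjusted p = 0.0060). *S100a9* had 6309, 5295 and 6028 against 10057, 18725 and 7796 CPM (1.05 ± 0.33, unadjusted p = 0.0089), and *Ltf* 3221, 3025 and 3469 against 4609, 9623 and 4159 CPM (0.92 ± 0.32, unadjusted p = 0.0154). *Camp* had 1073, 1287 and 1404 against 1879, 3572 and 1604 CPM (0.91 ± 0.28, unadjusted p = 0.0084). In these 4 genes each L-BAIBA library was above each vehicle library, also in pools Q1+Q2 and Q7+Q8. How many of all genes were separated in this way was not counted.

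*Lcn2* was separated in the same way, at 1656, 1392 and 1581 CPM with vehicle and at 2067, 4534 and 2003 CPM with L-BAIBA (0.89 ± 0.32, unadjusted p = 0.0173). *Ngp* was not, with 8179, 6383 and 6933 against 8594, 19079 and 8041 CPM (0.73 ± 0.36, unadjusted p = 0.0652). The early genes overlapped, as in *Elane*, at 349, 494 and 488 CPM with vehicle and at 454, 1211 and 489 CPM with L-BAIBA (0.69 ± 0.37), where pools Q1+Q2 and Q7+Q8 lay within the vehicle range. *Mpo* had 0.63 ± 0.35, *Ctsg* 0.61 ± 0.36 and *Prtn3* 0.93 ± 0.41 (unadjusted p = 0.0459).

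Without pool Q5+Q6, 5 members stayed at an unadjusted p under 0.05, all late, with 4.55% of all genes higher at that threshold. *S100a8* had a log2 fold change of 0.67 (unadjusted p = 0.0073), *S100a9* 0.60 (unadjusted p = 0.0177), *Camp* 0.47 (unadjusted p = 0.0161), *Ltf* 0.44 (unadjusted p = 0.0371) and *Lcn2* 0.40 (unadjusted p = 0.0357), and the smallest of their adjusted p values by edgeR was 0.36. The early genes were then at 0.08 (*Ctsg*) to 0.27 (*Prtn3*), with a median of 0.10 against 0.46 for the late genes. Without loaded L-BAIBA replicate 2 alone the count was 3, and without loaded L-BAIBA replicate 3 it was 10. The latter fit leaves the loaded library of pool Q5+Q6 beside that of pool Q1+Q2 only. No percentage of all genes stands beside these counts.

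Other neutrophil genes followed the late members. Of 14 genes of mature neutrophils, 14 were higher and 13 at the unadjusted threshold (median 0.92), among them the IL-1 decoy receptor *Il1r2* (0.78 ± 0.16), *Retnlg* (1.29 ± 0.30), *Fpr2*, a receptor for formylated peptides (1.33 ± 0.34), *Csf3r* (1.14 ± 0.30) and *Cxcr2* (1.44 ± 0.52). Of 14 other late granule and membrane genes, 13 were higher at that threshold, such as the gelatinase *Mmp9* (0.93 ± 0.26) and *Mmp8* (1.08 ± 0.38), and of the 8 other promyelocyte genes 3 were, with *Ms4a3* at 0.69 ± 0.32. The protease inhibitors *Slpi* (1.04 ± 0.30) and *Stfa1* (1.36 ± 0.43) were higher, while *Serpinb1a* stood at 0.64 ± 0.31 and *Ctsc* at 0.17 ± 0.13. Of the regulators, *Spi1* (0.88 ± 0.26) and *Cebpe* (0.88 ± 0.35) were higher at that threshold, and *Gfi1* stood at 0.21 ± 0.16. Without pool Q5+Q6, 10 of 14 mature neutrophil genes, 9 of 14 other late genes and 2 of 8 other promyelocyte genes were higher at that threshold.

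Other cell lists differed in this comparison as well. The 6 erythroid genes were all lower (3 at the threshold, median -0.90), with the list at 7.56 to 9.11 on the log2 CPM scale in the loaded vehicle and at 7.30 to 8.01 in the loaded L-BAIBA libraries. Of 11 B lineage genes, 10 were lower (0 at the threshold, median -0.77), with medians of the list of 4.43 in the loaded vehicle and 3.92 in the loaded L-BAIBA libraries. Pool Q5+Q6 had the lowest B lineage values, 1.80 in the loaded and 1.48 in the nonloaded tibiae, in the libraries where the granule genes were highest. Of 12 monocyte and macrophage genes, 5 were higher and 2 lower at the threshold (median 0.22), and the osteocyte genes had a median of -0.25. The part of these lists in the higher granule genes was not tested.

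**Figure D4:**
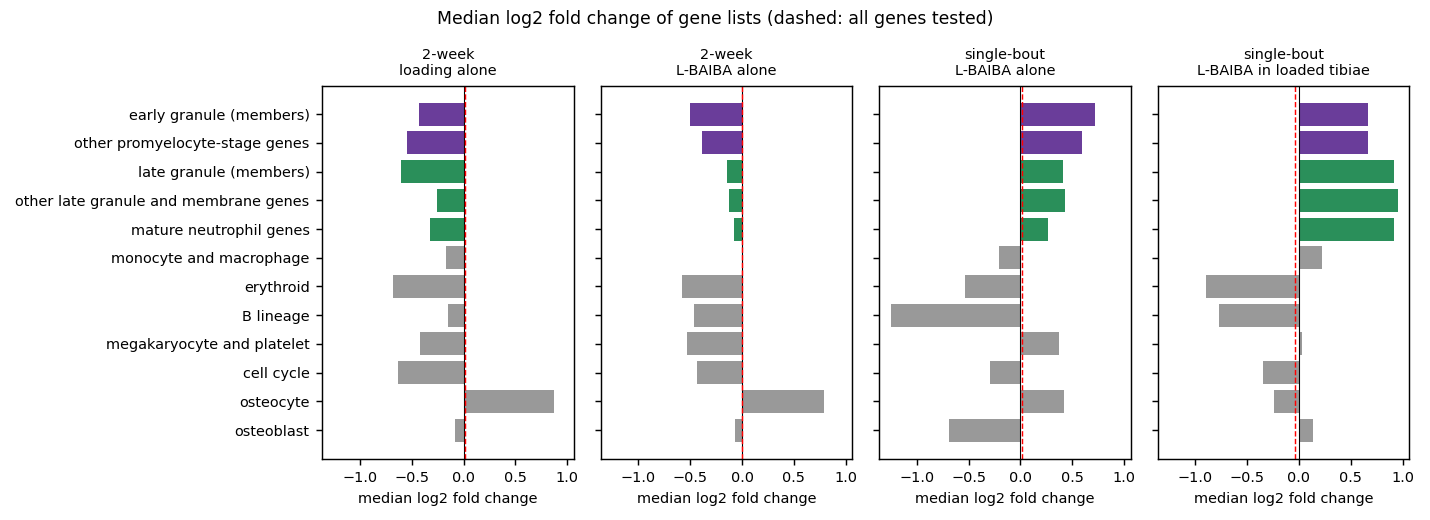
Median log2 fold change of 12 gene lists, granule genes included, in 4 comparisons, with a dashed line at the median of all genes tested. The early and other promyelocyte genes (purple) and the late and mature neutrophil genes (green) lie below 0 in both 2-week panels. They lie above 0 in both single-bout panels, and the erythroid and B lineage lists lie below 0 in all 4 panels.

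Loading within L-BAIBA-treated mice gave different signs for the classes after a single bout, a median of -0.15 on the log2 scale for the early and 0.31 for the late genes. All 4 early genes were lower in the loaded tibiae, from -0.09 ± 0.45 (*Prtn3*) to -0.21 ± 0.39 (*Ctsg*), although *Prtn3* and *Elane* stood at 0.12 and 0.05 in the fit with mouse pools as fixed blocks. All 6 late genes were higher, from 0.19 ± 0.40 (*Ngp*) to 0.37 ± 0.36 (*S100a8*). None reached an unadjusted p under 0.05 (0 of 10, with 0.419% of all genes higher there), and 3 did without loaded L-BAIBA replicate 2. Without pool Q5+Q6, which leaves a single nonloaded L-BAIBA library, the medians were -0.11 for the early and 0.24 for the late genes. The interaction had a median of -0.03 for the early and 0.53 for the late genes, up to 0.63 ± 0.48 for *S100a8*, with 0 members at that threshold and 0.49% of all genes higher there. The early genes *Elane* (0.01) and *Prtn3* (0.07) had the opposite sign with scaling by total counts. With mouse pools as fixed blocks it was 2 members, *Ltf* (0.75, unadjusted p = 0.0445) and *Lcn2* (0.67, unadjusted p = 0.0389). Without pool Q5+Q6, and so with a single nonloaded L-BAIBA library, the medians of the interaction were 0.01 for the early and 0.47 for the late genes. Of 14 mature neutrophil genes, 4 had a positive interaction at that threshold (median 0.77), among them *Il1r2* (0.95 ± 0.25) and *Trem1* (0.91 ± 0.24), and *Gfi1* stood at -0.57 ± 0.24 after 0.78 ± 0.17 with L-BAIBA alone.

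In 9 mouse pools both tibiae were sequenced, so the loaded and the nonloaded bone of the same 2 mice could be set side by side. All 4 vehicle pools had lower values of all 10 members in the loaded tibia, with medians of -0.42 in pool R1+R2, -0.50 in R9+R10, -0.38 in Q11+Q12 and -0.10 in Q13+Q14. Between 48.8 and 51.4% of all genes were lower in the loaded tibia of a vehicle pool, and 15.8% of 15188 genes were lower in all 4. In pool Q13+Q14 the differences were small, from -0.02 for *Mpo* to -0.22 for *Ltf*.

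L-BAIBA pools did not show this direction in common. Pool R13+R14 had all 10 members higher in the loaded tibia (median 0.31) and R15+R11 had 9, with *S100a8* at -0.08. In R4+R5, the shallow pair, the early genes averaged 0.05 and the late genes -0.75, with *S100a8* at 6488 CPM in the nonloaded and 3233 CPM in the loaded tibia. After a single bout, pool Q5+Q6 had the late genes higher by 0.61 on average and the early genes by 0.15, and Q7+Q8 had the late genes at 0.16 and the early genes at -0.10. After a single bout, late genes were thus higher in the loaded tibia of both L-BAIBA pools and lower in that of both vehicle pools. That is 2 pools on either side, and how many of all genes had this pattern was not counted.

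**Figure D5:**
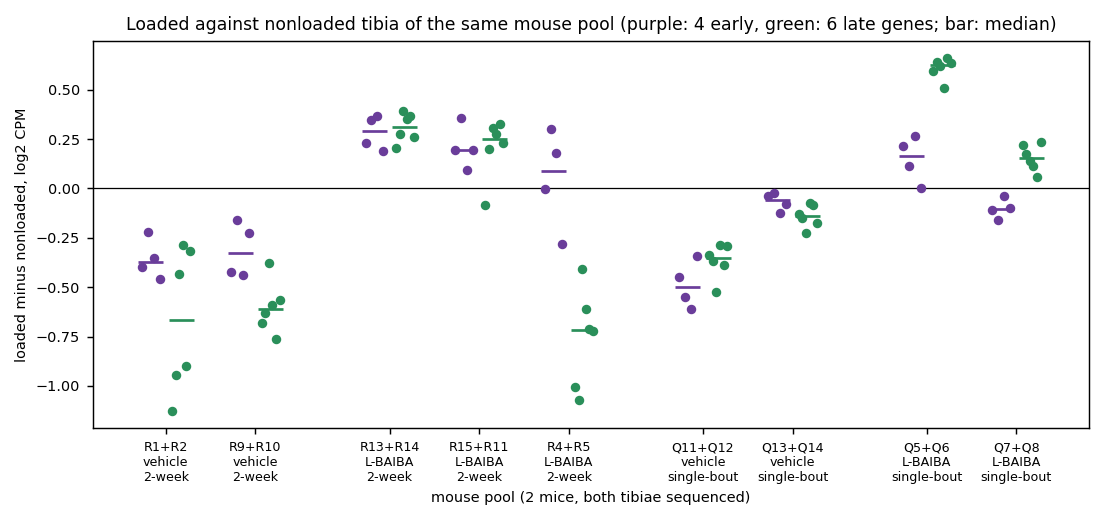
Loaded minus nonloaded log2 CPM within each of the 9 mouse pools sequenced for both tibiae, one point per gene (early in purple, late in green) with a bar at the class median. All points of the 4 vehicle pools lie below 0, and the L-BAIBA pools lie on both sides, from -1.07 for *S100a9* in R4+R5 to 0.66 for *Camp* in Q5+Q6.

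The ratio of early to late genes, taken as the difference of their mean log2 CPM, ranged from -3.12 to -2.32 over the 2-week libraries and from -3.41 to -2.64 over the single-bout libraries. After 2 weeks it was -2.66 ± 0.26 (SD, n = 3) in nonloaded vehicle, -2.52 ± 0.08 in loaded vehicle, -2.92 ± 0.19 in nonloaded L-BAIBA and -2.66 ± 0.30 in loaded L-BAIBA tibiae. After a single bout it was -3.07 ± 0.24, -2.99 ± 0.33, -2.78 ± 0.21 (n = 2) and -3.23 ± 0.16 in the same order. The libraries of nonloaded L-BAIBA and loaded vehicle tibiae, which differ in both treatments, did not overlap after 2 weeks. Nor did those of nonloaded and loaded L-BAIBA tibiae after a single bout. All other pairs of groups within an experiment overlapped, and no test was made of this ratio. The nonloaded library of pool Q5+Q6 had the highest ratio of the single-bout libraries, -2.64, and the loaded one stood at -3.10.

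The same contrast was then compared between the experiments, in 1 fit of all 23 libraries, as the single-bout effect minus the 2-week effect. The experiments differ in the length of both treatments, in mice and in sequencing run, which cannot be told apart. For L-BAIBA alone, the difference was positive for all 10 members, with a median of 1.17 for the early and 0.52 for the late genes. At an unadjusted p under 0.05 were 3 members, against 3.41% of all genes, *Mpo* (1.23 ± 0.44), *Prtn3* (1.37 ± 0.49) and *Elane* (1.11 ± 0.43). It was 0 without nonloaded L-BAIBA replicate 1 of the single-bout experiment, 5 without nonloaded L-BAIBA replicate 1 of the 2-week experiment and 1 without pool Q5+Q6, where the median over the members was 0.21.

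For the combination, the difference had a median of 0.83 for the early and 0.96 for the late genes, with 5 members at an unadjusted p under 0.05 against 5.85% of all genes, *S100a8* (1.25 ± 0.45), *S100a9* (1.15 ± 0.47), *Prtn3* (1.12 ± 0.46), *Camp* (1.10 ± 0.41) and *Elane* (0.88 ± 0.41). Without pool Q5+Q6 it was 1 member with a median of 0.33, and without pool R4+R5 it was 3. Leaving out 1 library gave 0 members without loaded L-BAIBA replicate 2 of the single-bout experiment, 9 without its replicate 3, 2 without loaded L-BAIBA replicate 1 of the 2-week experiment, and 3 without nonloaded vehicle replicate 1 or 2 of the 2-week or replicate 2 or 3 of the single-bout experiment. For loading alone, the difference had a median of 0.32 (early 0.28, late 0.37) with 0 members at the threshold, against 1.13% of all genes, and ranged from 0.14 ± 0.49 for *Ltf* to 0.56 ± 0.45 for *S100a8*. These comparisons share their nonloaded vehicle libraries with one another.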

How the data were processed

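Poly(A) RNA of 12 libraries (2-week) and 11 libraries (single-bout) was sequenced by the authors, who aligned reads to mm10 with STAR 2.5.2b and used featureCounts of Subread 1.5.1 (paired ends, reverse strand, uniquely mapped reads only) to count them over refSeq genes. Raw counts were deposited by the authors for genes they kept by a CPM threshold. The deposited tables also hold exon lengths, used here for levels per kilobase, 23 columns of the authors' log2 values per sample (log2 RPKM or FPKM), and the authors' fold changes and p-values of group comparisons, none of which were used.

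From the counts, genes were kept where 4 or more libraries had a CPM above 0.5 (15576, 15500, and 15492 in the joint fit), TMM scaling was applied, and 1 model per experiment was fitted to its groups with edgeR 4.0.16 (quasi-likelihood test, R 4.3.3), with Benjamini-Hochberg adjustment over all genes. Log2 CPM had a prior count of 2. SEs are the log2 fold change divided by the root of the F statistic. Alternatives were DESeq2 1.42.0, the likelihood ratio test, other scalings and filters, limma 3.58.1 with mouse pools as a block, and leaving out libraries. Pools come from the mouse numbers in the titles. Both tibiae of a pool deviated together (correlations 0.156 to 0.563, consensus 0.44 and 0.41). The fit was tested on simulated counts.

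All 10 members are named in every comparison. From other lists at most 4 genes with the lowest p are named, plus 8 fixed genes, and the 5 genes most like each class, of which 1 is not reported here. The members and lists were chosen with earlier results of these data known. Library totals were 6368289 to 37562527 counts. The p-values of the main fit measure the spread between libraries of 2 mice each. That fit has no term for the mouse pool, so the loaded and the nonloaded tibiae of a pool count as independent. Of the lists, genes such as *Ly6g* and the globins were not analysed here.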

Additional observations from a re-analysis of the deposited data

Results flagged for a closer look

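At an unadjusted p under 0.05, the loading response of 3 early genes differed between L-BAIBA and vehicle mice after 2 weeks. The log2 difference was 0.67 for *Elane*, 0.71 for *Mpo* and 0.69 for *Prtn3*, with an adjusted p of 0.72 by edgeR's quasi-likelihood test. Of all genes, 2.47% were higher at the unadjusted threshold. The count of members was 0 without loaded vehicle replicate 2 or loaded L-BAIBA replicate 3. The response to L-BAIBA alone differed between the single-bout and the 2-week experiment by 1.11 for *Elane*, 1.23 for *Mpo* and 1.37 for *Prtn3* (adjusted p 0.66 by the same test). Here 3.41% of all genes were higher at the unadjusted threshold. The response to the combination differed between the experiments by 0.88 for *Elane*, 1.12 for *Prtn3*, 1.25 for *S100a8*, 1.15 for *S100a9* and 1.10 for *Camp* (adjusted p 0.41 to 0.46). There 5.85% of all genes were higher at that threshold. The last 2 sets rest in part on pool Q5+Q6, without which 1 member each remained at an unadjusted p under 0.05.

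Within mouse pools, loaded minus nonloaded values of some genes were negative in every vehicle pool and positive in every L-BAIBA pool, and these differences were not tested. After 2 weeks the means of the L-BAIBA pools exceeded those of the vehicle pools by 0.53 log2 units for *Mpo* and 0.61 for *Prtn3*. After a single bout all 6 late genes had this pattern in 2 pools against 2, and no early gene had it. The difference was 0.60 for *Camp*, 0.67 for *Lcn2*, 0.75 for *Ltf*, 0.49 for *Ngp*, 0.64 for *S100a8* and 0.67 for *S100a9*. How many of all genes had this pattern was not counted in either experiment. The classes parted on small values in pool Q7+Q8. There the early genes stood at -0.04 (*Prtn3*) to -0.16 (*Mpo*) and the late genes at 0.06 (*Camp*) to 0.23 (*Lcn2*).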

How the results depend on the processing

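Since edgeR's quasi-likelihood test gave no member an adjusted p under 0.05 in any comparison, no such call could be lost. The median log2 fold change of the members kept its sign under all alternatives in 11 of the 15 comparisons, and the others were loading within L-BAIBA in both experiments, L-BAIBA alone and the interaction after a single bout. The number of members at an unadjusted p under 0.05 moved by over 1.5 times as follows. With scaling by total counts it was 3 for 2 weeks of loading alone and 1 for the 2-week interaction. For the single-bout combination it was 5 with DESeq2 and 5 with the likelihood ratio test, and for L-BAIBA alone after a single bout it was 4 when only the groups compared were fitted. With the replicate block it was 1 for loading within L-BAIBA after 2 weeks (pool random or fixed), 2 for the single-bout interaction (pool fixed) and 1 for the single-bout combination when the number in the titles was the block, and it moved no other count of members by that much. Without pool R4+R5, an alternative chosen after seeing the data like all that leave out a pool, it was 8 for the 2-week interaction, 2 for L-BAIBA in loaded tibiae, and 5 and 3 for the differences between experiments in L-BAIBA alone and in the combination. Without pool Q5+Q6 it was 0 for the single-bout combination and 1 for each of these differences.

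Leaving out 1 library at a time gave 1 to 6 members for loading alone, 1 to 3 for L-BAIBA alone, 0 to 1 for the combination, 0 to 1 for L-BAIBA in loaded tibiae, 0 to 1 for loading within L-BAIBA and 0 to 4 for the interaction after 2 weeks. After a single bout it gave 0 to 0, 0 to 4, 0 to 6, 3 to 10, 0 to 3 and 0 to 0 in that order. For the differences between experiments it gave 0 to 0 for loading alone, 0 to 5 for L-BAIBA alone and 0 to 9 for the combination. By DESeq2 and the likelihood ratio test, 866 and 594 genes had an adjusted p under 0.05 for L-BAIBA in loaded tibiae after a single bout, 351 and 257 for the combination there and at most 8 in any other comparison. The cause of this difference from the quasi-likelihood test was not tested.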
